A study of Homo sapiens with 12 samples.

Results

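The 42 genes described here carry out or regulate autophagy and the work of the lysosome, and were read in REC1, an established cell line of human mantle cell lymphoma, a cancer of B cells. They were taken from the deposited count table by gene symbol, from a list of names, and are 42 of the 60483 genes in the table. By role they fall into 12 genes of initiation and of the growing membrane, 10 of the conjugation machinery with the ATG8 family and a cargo receptor, 5 regulators, 3 lysosome membrane proteins, 8 hydrolases and 4 parts or partners of the proton pump.

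Autophagy is the process by which a cell wraps part of its own cytoplasm in membrane and delivers it to the lysosome for breakdown. The ULK1 kinase complex and the BECN1 lipid kinase complex start the membrane, conjugation enzymes then attach ATG8 proteins such as MAP1LC3B to it, and receptors such as SQSTM1 bring in the cargo. The lysosome takes up the vesicle, is kept acidic by the V-ATPase proton pump, and breaks down the content with hydrolases such as the cathepsins. TFEB, TFE3 and MITF are related transcription factors that bind the motif CACGTG in promoters of autophagy and lysosome genes. Their entry into the nucleus is held back by the kinase mTORC1, in a branch that needs the RAG GTPases (RRAGD is a subunit) and FLCN, while signals from the B-cell receptor feed mTORC1 activity in B cells.

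Cells were exposed to DMSO (the solvent control), ibrutinib, SPX5551, or ibrutinib together with SPX5551 (the combination), and RNA was sequenced at 4, 8 and 12 h. The labels describe RNA extraction and poly(A) selection, but their fields for molecule and source of the library name genomic material, which contradicts the protocol. All values here are read as transcript counts. Ibrutinib inhibits BTK, a kinase that relays B-cell receptor signals, and SPX5551 (pol5551 in the table headers) is, going by the study's title, an inhibitor of the chemokine receptor CXCR4. The study's question was what CXCR4 inhibition adds to a targeted agent in lymphoma models, and the labels give no doses. All 12 libraries come from this 1 line, with 1 library for each treatment and time. Replicates of a treatment are therefore its 3 times (n = 3). Since the labels name no separate cultures, a p-value here measures the spread between these libraries only, which may be technical.

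The labels disagree on which column is which sample. Titles and treatments fit the column headers, but the free-text description of every sample names a column headed with a different treatment, at the same time. All values below follow the headers. Read by the descriptions, the columns headed as the combination would be the DMSO samples, and the direction of every member that passed in the combination versus DMSO would turn, for example to a log2 fold change of -0.79 for ULK1.

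The libraries held 19336303 to 28934030 counts. Markers of the B lineage and of mantle cell lymphoma summed to 3944 to 5173 CPM (counts scaled to a common library size), against 6.05 to 9.60 for T cell, 0.413 to 1.39 for myeloid, and 7.21 to 12.0 for stromal and epithelial markers, with ranges that overlapped between all 4 treatments. No marker of these lists was at 0 in all libraries. The libraries also differed in how a gene's level went with the length of its transcript: Spearman's rank correlation across genes, between a library's deviation from the gene's mean and transcript length, was 0.17 to 0.42 in the ibrutinib libraries, -0.41 to -0.20 in those of SPX5551, -0.32 to 0.39 in DMSO and -0.31 to 0.24 in the combination. The part of this trend in the results was not tested beyond a fit with the trend removed. In bulk RNA, fewer cells expressing a gene and less RNA of it per cell cannot be told apart.

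Of the 42 members, 41 passed the filter on low counts, with 33 to 14714 counts in any 1 library. MITF did not pass. It had 30 counts over the 12 libraries, at 0 to 0.356 CPM and no count in 3 of them, and so gave no test. Among the other members, levels per kilobase of transcript in the DMSO libraries ran from 1.47 CPM per kb for GABARAP to 289 for CTSZ, which encodes the lysosomal protease cathepsin Z. The next highest were ATG101, a subunit of the ULK1 complex, at 157, ATP6V0D1, a subunit of the membrane part of the proton pump, at 90.8, and GLA, the hydrolase alpha-galactosidase A, at 52.3. SQSTM1 stood at 43.7 and TFEB at 28.3 CPM per kb, above the related TFE3 at 4.74. Of the kinases that start autophagy, ULK1 stood at 2.91 and ULK2 at 2.31 CPM per kb, and WIPI1, ATG2A, RRAGD and GABARAPL1 were also under 3. The low value of GABARAP is uncertain, since 30.5% of its exon bases in GENCODE 29 are shared with another annotated gene on the same strand.

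The CACGTG motif was looked for in promoters because TFEB, TFE3 and MITF bind it. RefSeq (GRCh38.p14) gave promoter windows for 34 of the 42 members, each of 300 bases, from 250 before to 50 after the transcription start. The motif, which reads the same on both strands, was present in 7 of these 34 genes (20.6%), against 12.7% of the 10275 tested genes with a window. In all 7 genes at least 1 copy also read TCACGTG on either strand, a longer form that contains the first, and 7.28% of tested genes with a window held it. The 7 were 3 of 6 hydrolases (CTSA, CTSD and NEU1), both lysosome membrane genes with a window (LAMP1 and MCOLN1), 1 of 2 pump genes (ATP6V0D1) and 1 of 10 initiation genes (ATG14), and none of the 10 conjugation genes or 4 regulators. LAMP1 held 6 copies of CACGTG in its window, and its stretch below shows in full only the copy at position -28 from the start. The stretches below lie before the start on the strand of the gene. They show in capitals the copies that lie fully within them, and are given because the motif is what these 7 genes share in sequence.
LAMP1, chr13:113297184-113297238, plus strand: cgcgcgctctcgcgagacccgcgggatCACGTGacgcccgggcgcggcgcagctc
MCOLN1, chr19:7522583-7522623, plus strand: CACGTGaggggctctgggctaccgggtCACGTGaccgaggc
CTSA, chr20:45891283-45891334, plus strand: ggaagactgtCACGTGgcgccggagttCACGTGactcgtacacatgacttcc
CTSD, chr11:1763942-1764001, minus strand: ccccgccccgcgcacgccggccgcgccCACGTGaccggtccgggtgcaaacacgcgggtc
NEU1, chr6:31862915-31862974, minus strand: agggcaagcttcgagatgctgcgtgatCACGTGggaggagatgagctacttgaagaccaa
ATP6V0D1, chr16:67481184-67481243, minus strand: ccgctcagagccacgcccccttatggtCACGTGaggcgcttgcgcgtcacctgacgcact
ATG14, chr14:55411831-55411878, minus strand: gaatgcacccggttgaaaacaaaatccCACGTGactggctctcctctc

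Relative to DMSO, the combination raised 7 members and lowered none by edgeR's quasi-likelihood test (Benjamini-Hochberg adjusted p under 0.05). They were ULK1, WIPI1 and ATG2A of initiation, ATG16L2 and GABARAPL2 of conjugation, the membrane protein LAMP2 and the protease CTSD. These are 17.1% of the 41 members tested, while 9.57% of all 14412 genes tested were called, 4.16% as higher and 5.41% as lower. The median log2 fold change was 0.12 over the members and 0.02 over all genes, and 31 of 41 members had a positive value. Without the 4 h libraries 3 members passed, ULK1, WIPI1 and ATG16L2, and the same 3 passed without the 8 h libraries. With library sizes alone as the scaling 11 members passed, where 11.3% of all genes were called. With the trend in length and base composition removed 11 did, the 1 lower being ATG101, where 15.9% of all genes were called.

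**Figure D1:**
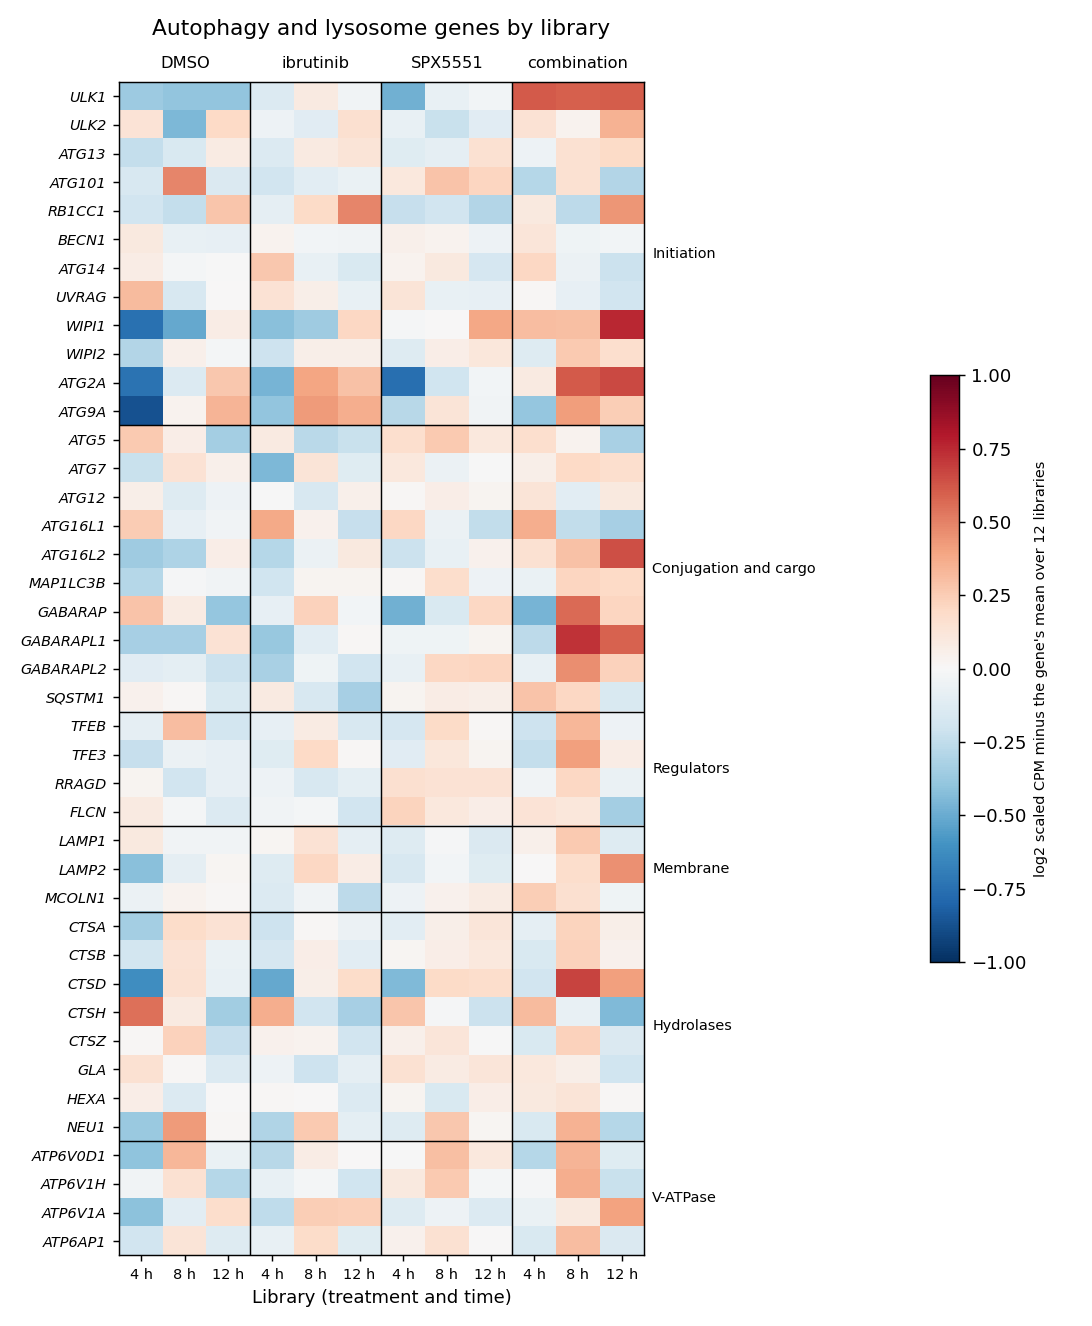
Heat map of the 41 members past the filter in 12 libraries. Rows are genes grouped by role, columns are libraries ordered by treatment and time, and colour gives the log2 scaled CPM minus the gene's mean over the 12 libraries. The ULK1 row is darkest red in the 3 combination libraries, while CTSH goes from red at 4 h to blue at 12 h in every treatment.

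ULK1 encodes the kinase that starts autophagosome formation (ENSG00000177169.8, hg38 chr12:131894651-131923167). At 4, 8 and 12 h its scaled CPM was 15.7, 15.3 and 15.3 with DMSO and 30.9, 30.4 and 30.6 with the combination. Values lay between these with ibrutinib, at 18.3, 21.5 and 19.7, and with SPX5551 they were 14.4, 19.1 and 19.7. Each combination library was above each of the other 9, and the 3 times hardly differed within the combination. The log2 fold change to DMSO was 0.99 ± 0.11 (SE, n = 3 per treatment), 1.98-fold, with an adjusted p of 9.8e-05 from edgeR.

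WIPI1 (ENSG00000070540.11, chr17:68420948-68457513) encodes a protein that binds the phosphoinositide of the growing membrane. Its CPM at 4, 8 and 12 h was 3.74, 4.39 and 6.59 with DMSO, 4.70, 4.91 and 7.23 with ibrutinib, 6.23, 6.27 and 8.17 with SPX5551, and 7.76, 7.73 and 10.6 with the combination. The order combination, SPX5551, ibrutinib, DMSO held at each time. The combination exceeded DMSO by 0.84 ± 0.13 on the log2 scale (edgeR adjusted p = 0.00151). Of the exon bases of WIPI1, 24.3% are shared with ARSG on the opposite strand, and whether counting used strand is not stated.

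ATG2A (ENSG00000110046.11, chr11:64894546-64917248) encodes a lipid transfer protein that feeds the growing membrane. At 4, 8 and 12 h its CPM was 12.6, 19.2 and 25.4 with DMSO and 22.4, 32.2 and 33.3 with the combination. With ibrutinib it was 15.3, 27.7 and 25.8, and with SPX5551 12.5, 18.4 and 20.7. The groups overlapped over all times, but at each time the combination was the highest library. The difference was 0.65 ± 0.11 (edgeR adjusted p = 0.00241), with values of 0.83, 0.74 and 0.39 at the 3 times in order.

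The other 9 initiation genes did not pass. ATG13, a scaffold of the ULK1 complex, and WIPI2, a relative of WIPI1, had log2 fold changes of 0.20 ± 0.08 and 0.19 ± 0.08 and were higher at all 3 times. ATG101 was at -0.21 ± 0.11 and lower at all 3 times. BECN1, the core of the lipid kinase complex, read 54.9, 48.7 and 48.6 CPM with DMSO and 55.9, 49.9 and 50.4 with the combination, a difference of 0.04 ± 0.08 (edgeR adjusted p = 0.824).

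Among the conjugation genes, ATG16L2 and GABARAPL2 rose. ATG16L2 (ENSG00000168010.9, chr11:72814308-72843674) is a paralogue of ATG16L1, the protein that directs ATG8 conjugation to the membrane. At 4, 8 and 12 h its CPM was 41.3, 42.7 and 55.2 with DMSO, 43.4, 50.6 and 56.5 with ibrutinib, 45.4, 50.3 and 54.5 with SPX5551, and 58.6, 64.6 and 82.3 with the combination. The combination libraries lay above the other 9, by 0.56 ± 0.09 relative to DMSO (edgeR adjusted p = 0.00122). ATG16L1 itself was at -0.12, and this pair was not tested against each other. An overlap with FCHSD2 on the opposite strand covers 7.89% of the exon bases of ATG16L2.

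GABARAPL2 (ENSG00000034713.6, chr16:75566351-75577881) is an ATG8 protein. Its CPM was 23.3, 23.5 and 21.6 with DMSO and 23.9, 34.7 and 29.5 with the combination, so the groups were 0.04 apart at 4 h and 0.56 and 0.45 apart at 8 and 12 h on the log2 scale. The difference of 0.35 ± 0.11 lay just inside the threshold (edgeR adjusted p = 0.0476). It passed in the same direction in 8 of the 25 settings run for this comparison, counting the one reported, against 24 of 25 for ULK1, 23 for WIPI1 and ATG16L2, 21 for ATG2A and CTSD and 14 for LAMP2. GABARAPL1, a related ATG8 gene, lay just outside at 0.56 ± 0.19 (edgeR adjusted p = 0.0736). It read 3.58, 3.57 and 4.98 CPM with DMSO and 3.77, 7.42 and 6.79 with the combination, and passed in 6 of 25 settings. MAP1LC3B, the ATG8 gene whose protein serves as the usual marker of autophagosomes, read 29.8, 35.9 and 35.4 CPM with DMSO and 34.7, 42.0 and 41.7 with the combination (0.23 ± 0.09, edgeR adjusted p = 0.128). SQSTM1 read 137, 134 and 120 CPM against 162, 154 and 120 (0.15 ± 0.10, edgeR adjusted p = 0.372).

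None of the 4 regulators tested passed. TFEB, the main activator of lysosome genes, read 67.5, 89.4 and 63.6 CPM with DMSO and 62.5, 90.8 and 69.7 with the combination (0.02 ± 0.09, edgeR adjusted p = 0.947). The sign of that value for TFEB changed with the tool, the removal of the trend in length and base composition, and the libraries used. TFE3 was at 0.22 ± 0.11 and RRAGD at 0.12, while FLCN, the protein that turns the RAG GTPases toward this branch of mTORC1, was at -0.00060 ± 0.10. These are transcript levels, and the position of TFEB in the cell was not measured.

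Of the lysosome genes, LAMP2 and CTSD rose. LAMP2 (ENSG00000005893.14, chrX:120427827-120469365) encodes a major membrane protein of the lysosome and read 63.0, 79.1 and 85.1 CPM with DMSO and 84.6, 95.1 and 116 with the combination. It was higher at each time, though the combination at 4 h lay below DMSO at 12 h (0.38 ± 0.10, edgeR adjusted p = 0.0242). LAMP1, its relative, read 47.2, 43.2 and 43.0 CPM with DMSO against 45.8, 53.0 and 40.4 with the combination, a log2 fold change of 0.06 ± 0.09 that changed sign without the 8 h libraries, the DMSO library of 8 h or the combination library of 8 h.

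CTSD (ENSG00000117984.11, chr11:1752752-1764573), the aspartic protease cathepsin D, read 23.3, 39.7 and 34.0 CPM with DMSO, 25.1, 37.2 and 40.6 with ibrutinib, 26.3, 40.8 and 40.3 with SPX5551, and 31.4, 57.1 and 47.6 with the combination. The combination was highest at each time, by 0.48 ± 0.09 relative to DMSO (edgeR adjusted p = 0.00561). Another annotated gene on the same strand, which had 0 counts in the table, shares 41.7% of the exon bases of CTSD. The other 7 hydrolases ran from -0.17 for CTSH to 0.11 for HEXA, and the median of the 8 was 0.02. The 4 pump genes had positive values of 0.02 to 0.26 and none passed. ATP6V1H, a subunit of the cytosolic part of the pump, read 47.2, 53.9 and 39.9 CPM with DMSO and 47.9, 62.2 and 41.6 with the combination (0.10 ± 0.09).

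**Figure D2:**
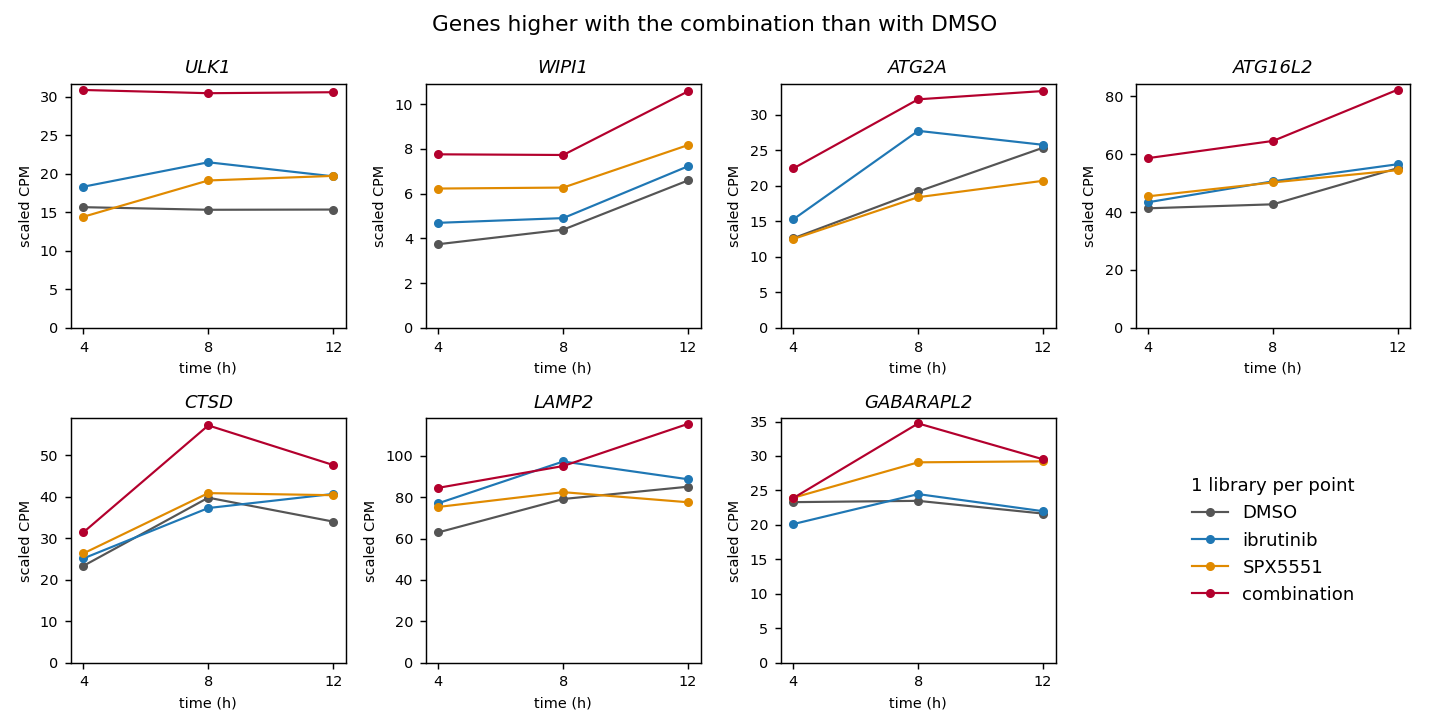
Scaled CPM (vertical axis, from 0) against time in hours for the 7 genes higher with the combination than with DMSO, with 1 library per point and 1 line per treatment. The combination line of ULK1 is flat between 30.4 and 30.9 while those of ATG2A, ATG16L2 and LAMP2 climb, and GABARAPL2 starts together with DMSO at 4 h.

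With ibrutinib alone no member passed relative to DMSO by edgeR, and 0.104% of all genes did, 15 genes that were all lower. DESeq2 and limma called no member either, and 3 members had an unadjusted p under 0.05: ULK1 (0.36 ± 0.11), ATG2A (0.28 ± 0.11) and LAMP2 (0.22 ± 0.10), each with a positive value and an edgeR adjusted p of 0.452. Of all 14412 genes tested, 1588 had an unadjusted p under 0.05 by edgeR. The median over the members was 0.0015 against 0.01 over all genes. ULK1 was higher with ibrutinib than with DMSO at all 3 times, with no overlap of the groups.

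With SPX5551 alone, too, no member passed by edgeR, DESeq2 or limma, and 0% of all genes were called by edgeR. The members with an unadjusted p under 0.05 were 2, WIPI1 (0.51 ± 0.14) and GABARAPL2 (0.26 ± 0.11), each with an edgeR adjusted p of 0.598. Of all 14412 genes tested, 1200 had an unadjusted p under 0.05 by edgeR. The median was 0.09 over the members and -0.0047 over all genes, and 31 of 41 had a positive value. ATG2A was below DMSO at all 3 times with SPX5551, with log2 differences of -0.01, -0.06 and -0.29. Both agents share the DMSO libraries in these comparisons.

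**Figure D3:**
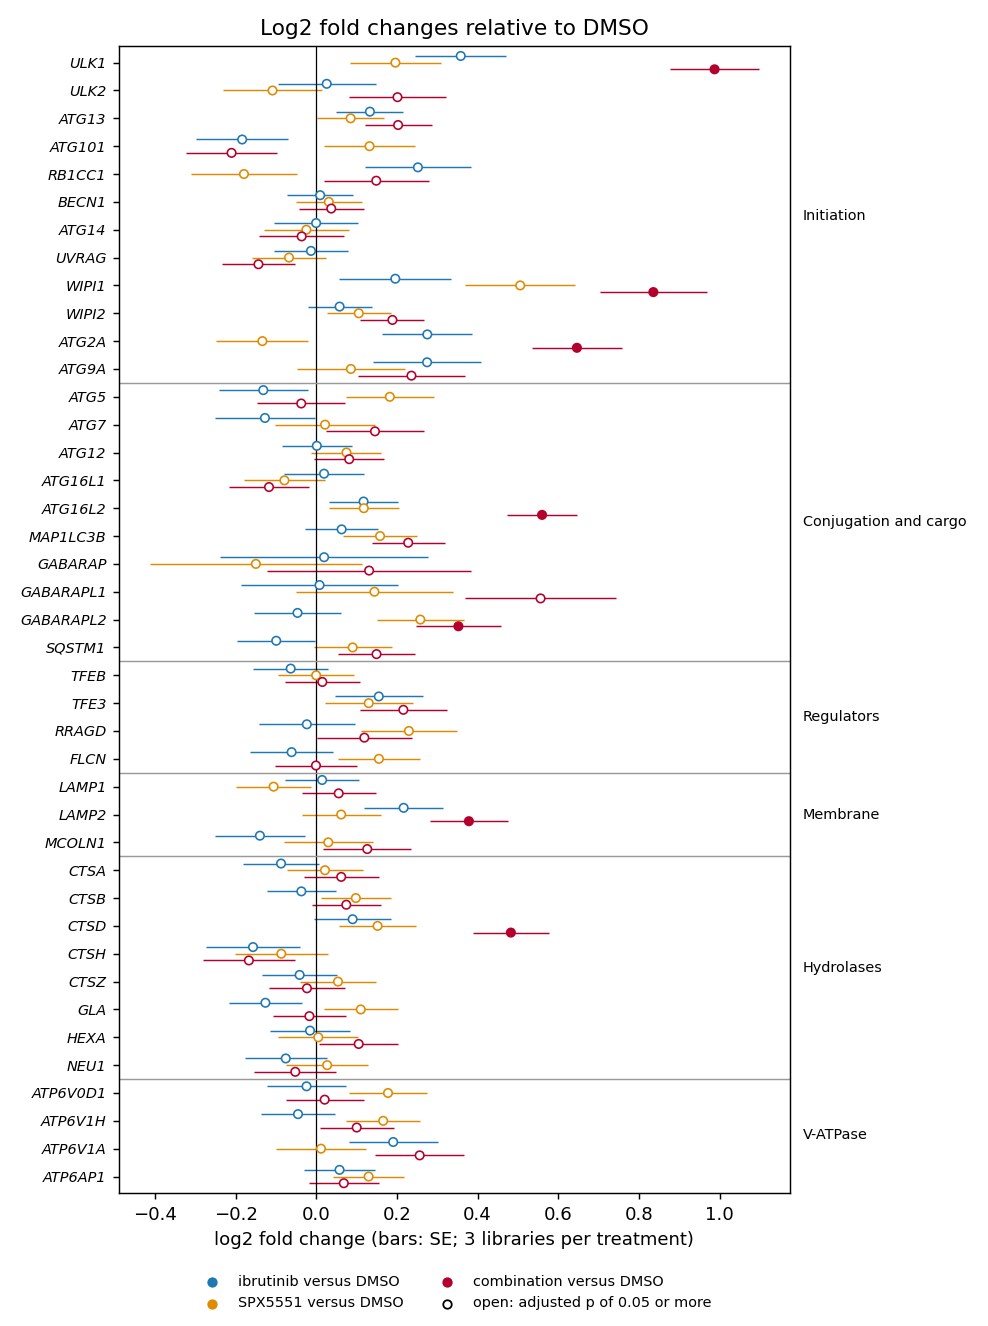
Log2 fold change relative to DMSO (horizontal axis) of the 41 tested members for ibrutinib, SPX5551 and the combination, with bars of 1 SE. Filled points passed an adjusted p of 0.05, and the only filled points are the 7 of the combination, from 0.35 for GABARAPL2 to 0.99 for ULK1.

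SPX5551 added to ibrutinib, that is the combination versus ibrutinib, raised 5 members (12.2% of those tested) and lowered none, where 5.49% of all genes were called, 2.1% as higher and 3.39% as lower. The 5 were WIPI1 at 0.64 ± 0.13, ULK1 at 0.63 ± 0.11, ATG16L2 at 0.44 ± 0.09, GABARAPL2 at 0.40 ± 0.11 and CTSD at 0.39 ± 0.09, with edgeR adjusted p of 0.0147, 0.00689, 0.0113, 0.0397 and 0.0276. Their medians were 0.11 over all members and 0.01 over all genes. No member passed without the ibrutinib library of 4 h, without all 4 h libraries or without all 8 h libraries. Without the ibrutinib library of 8 h or the combination library of 8 h 2 passed (ULK1 and ATG16L2), and without the ibrutinib library of 12 h or the combination library of 4 h 3 did.

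Ibrutinib added to SPX5551, that is the combination versus SPX5551, raised 4 members (9.76%) and lowered none, where 7.24% of all genes were called, 3.27% as higher and 3.97% as lower. ULK1 was higher by 0.79 ± 0.11, ATG2A by 0.78 ± 0.11, ATG16L2 by 0.44 ± 0.09 and CTSD by 0.33 ± 0.09, with edgeR adjusted p of 0.00112, 0.00135, 0.00761 and 0.0438. For ATG2A the groups did not overlap, at 12.5 to 20.7 CPM with SPX5551 and 22.4 to 33.3 with the combination. Only ULK1 and ATG2A passed without the 12 h library of SPX5551, without that of the combination, and without all 12 h or all 4 h libraries. WIPI1, at 0.33 ± 0.13, did not pass.

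Whether the combination differed from the sum of its parts was tested as an interaction, the log2 effect of both agents relative to DMSO less the log2 effects of each. No member and 0% of all genes passed by edgeR, and DESeq2 and limma called no member either, while 845 of the 14412 genes had an unadjusted p under 0.05. The members with an unadjusted p under 0.05 were 3, all positive and with an edgeR adjusted p of 0.766: ATG2A at 0.50 ± 0.16, ULK1 at 0.43 ± 0.16 and ATG16L2 at 0.32 ± 0.12. For ULK1, the values relative to DMSO were 0.36 with ibrutinib, 0.20 with SPX5551 and 0.99 with both.

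Setting the 6 ibrutinib-exposed libraries against the other 6, with time and SPX5551 exposure in the model, 5 members were higher and 1 lower (14.6% of 41), and 13.7% of all genes were called, 7.14% as higher and 6.58% as lower. ULK1 was higher by 0.58 ± 0.09, ATG2A by 0.53 ± 0.10, RB1CC1 by 0.29 ± 0.09, ATG16L2 by 0.28 ± 0.07 and LAMP2 by 0.27 ± 0.07, with edgeR adjusted p of 0.00213, 0.00537, 0.0405, 0.0203 and 0.0210. RB1CC1 is the large scaffold of the ULK1 complex. ATG101, another subunit, fell by 0.26 ± 0.08 (edgeR adjusted p = 0.0393), from 189 to 297 CPM in the DMSO and SPX5551 libraries to 172 to 236 in the exposed ones, ranges that overlap. The median was 0.0042 over the members and 0.02 over all genes. ULK1 and ATG2A alone passed without the DMSO library of 8 h, the SPX5551 library of 8 or 12 h, the combination library of 4 or 12 h, or all libraries of 4 or of 12 h, and no member passed without the 8 h libraries. The longest protein-coding transcripts of RB1CC1 and ATG101 in GENCODE 29 have 6635 and 1439 bases. Among the 6 exposed libraries, this correlation with transcript length was positive in the 3 of ibrutinib and in the combination at 12 h, and negative in the combination at 4 and 8 h. With the trend in length and base composition removed, ATG101 still passed and RB1CC1 did not.

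The 6 SPX5551-exposed libraries had 5 members higher than the other 6 and none lower (12.2%), and 7.01% of all genes were called, 2.12% as higher and 4.89% as lower. WIPI1 was higher by 0.58 ± 0.10, ULK1 by 0.42 ± 0.09, GABARAPL2 by 0.33 ± 0.08, ATG16L2 by 0.28 ± 0.07 and CTSD by 0.27 ± 0.07, with edgeR adjusted p of 0.0104, 0.0185, 0.0215, 0.0291 and 0.0324. The median was 0.09 over the members and 0.01 over all genes, and 34 of 41 members had a positive value. WIPI1 passed in 20 of the 24 settings run and CTSD in 9. WIPI1 alone passed without the ibrutinib library of 4 h, that of 8 h or the combination library of 8 h. It passed with ULK1 alone without the DMSO or the ibrutinib library of 12 h, with GABARAPL2 alone without the combination library of 4 h, and with both without the combination library of 12 h or all 4 h libraries. No member passed without all 8 h or all 12 h libraries. Of the members higher with the combination than with DMSO, ULK1 and ATG16L2 were thus called for both exposures. ATG2A and LAMP2 were called for ibrutinib exposure, and WIPI1, GABARAPL2 and CTSD for SPX5551 exposure. These differences between the exposures were not tested. Both exposures hold the same combination libraries, and their model has no interaction term. A call for an exposure is therefore not a call for that agent alone, for which no member passed relative to DMSO.

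More members passed for culture time than for any treatment, and the same held for all genes. The largest share of all genes called for a treatment or exposure was 13.7%, for ibrutinib exposure. From 4 to 8 h, 15 members rose and 2 fell, 41.5% of 41, where 26.6% of all genes were called, 13.1% as higher and 13.4% as lower. From 4 to 12 h, 12 rose and 7 fell, 46.3%, where 35.9% of all genes were called, 18.4% as higher and 17.5% as lower. With library sizes alone the split at 12 h was 18 higher and 3 lower, and without the filter on low counts it was 11 and 4. Among all genes those splits were 3524 higher and 1676 lower of 14412, and 2746 and 2313 of 32191. Each time pools 4 libraries (n = 4), 1 per treatment, and time and any batch of harvest cannot be told apart.

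The members that rose most with time were ATG9A, ATG2A and CTSD. ATG9A, the membrane protein of the vesicles that seed the autophagosome, read 15.2, 28.5 and 35.1 CPM at 4, 8 and 12 h with DMSO, 21.1, 37.2 and 35.7 with ibrutinib, 22.9, 30.4 and 27.1 with SPX5551, and 21.2, 37.2 and 32.9 with the combination. All 4 libraries of 4 h lay below all 8 of the later times. The log2 change was 0.73 ± 0.12 at 8 h and 0.71 ± 0.12 at 12 h (edgeR adjusted p = 4.5e-04 and 3.4e-04). An overlap with another annotated gene on the same strand covers 38.8% of its exon bases. ATG2A rose by 0.64 ± 0.10 and 0.76 ± 0.10, and CTSD by 0.71 ± 0.08 and 0.62 ± 0.08.

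Some members were highest at 8 h. NEU1, the sialidase of the lysosome, read 38.4, 67.0 and 50.1 CPM with DMSO, 40.4, 59.6 and 46.4 with ibrutinib, 45.6, 60.02 and 50.5 with SPX5551, and 44.8, 63.3 and 40.9 with the combination. It rose by 0.56 ± 0.09 at 8 h (edgeR adjusted p = 3.9e-04) and did not pass at 12 h. ATP6V0D1 read 119, 198 and 150 CPM with DMSO and 129, 199 and 145 with the combination, up 0.50 ± 0.08 at 8 h (edgeR adjusted p = 6.2e-04). TFEB rose by 0.37 ± 0.08 at 8 h (edgeR adjusted p = 0.00370), and its 8 h library was the highest of the 3 in each treatment. TFE3 and ATG101 rose at 8 h as well, by 0.35 ± 0.09 and 0.35 ± 0.10, and neither they nor TFEB passed at 12 h. WIPI2, CTSA, CTSB, ATP6AP1, GABARAPL2, LAMP2 and MAP1LC3B rose at 8 h by 0.23 to 0.30. They were not all highest at 8 h in every treatment. For example, LAMP2 was highest at 12 h with DMSO and the combination, and WIPI2 with ibrutinib and SPX5551. The difference between 8 and 12 h was not tested.

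At 12 h WIPI1 was higher by 0.55 ± 0.12, GABARAPL1 by 0.45 ± 0.17, ATG16L2 by 0.39 ± 0.07, ATP6V1A by 0.39 ± 0.10 and RB1CC1 by 0.34 ± 0.11. GABARAPL1 passed in 9 of the 20 settings run for this comparison and RB1CC1 in 14, the other 3 in all 20. The smaller rises were those of LAMP2, ATG13, WIPI2 and CTSA, from 0.25 to 0.29. ATP6V1A encodes the catalytic subunit of the pump, and its values at 4, 8 and 12 h were 41.3, 51.1 and 61.8 CPM with DMSO and 50.2, 52.9 and 49.9 with SPX5551. RB1CC1 likewise did not rise with SPX5551, at 48.9, 50.4 and 46.9 CPM, while it was higher at 12 h than at 4 h with each other treatment.

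CTSH, the aminopeptidase cathepsin H, fell most. It read 16.4, 11.9 and 8.81 CPM with DMSO, 14.4, 9.81 and 8.89 with ibrutinib, 13.6, 11.1 and 9.66 with SPX5551, and 13.9, 10.7 and 8.25 with the combination. The fall was in the same order in every treatment, and the log2 change was -0.43 ± 0.10 at 8 h and -0.71 ± 0.10 at 12 h (edgeR adjusted p = 0.00492 and 1.2e-04). ATG16L1 fell by 0.39 ± 0.09 at 8 h and 0.52 ± 0.09 at 12 h, while its paralogue ATG16L2 rose at 12 h and did not pass at 8 h. ATG5, which forms the conjugation complex with ATG12 and ATG16L1, fell by 0.37 ± 0.10 at 12 h. The other members lower at 12 h were ATG14 and UVRAG, alternative partners of BECN1, at -0.28 and -0.24, and SQSTM1 and FLCN at -0.25 each. FLCN passed in 11 and ATG14 in 14 of 20 settings.

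The time counts depended on some libraries. Of the 19 members called at 12 h, 12 were called without the combination library of 4 h, that of 12 h, or the ibrutinib library of 12 h. Of the 17 at 8 h, 10 were called without the combination library of 4 h or of 8 h, and 11 without the DMSO library of 4 h. A test of time by ibrutinib exposure called no member and 0% of all genes by edgeR, with 0 members and 252 of 14412 genes at an unadjusted p under 0.05, and DESeq2 called no member.

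**Figure D4:**
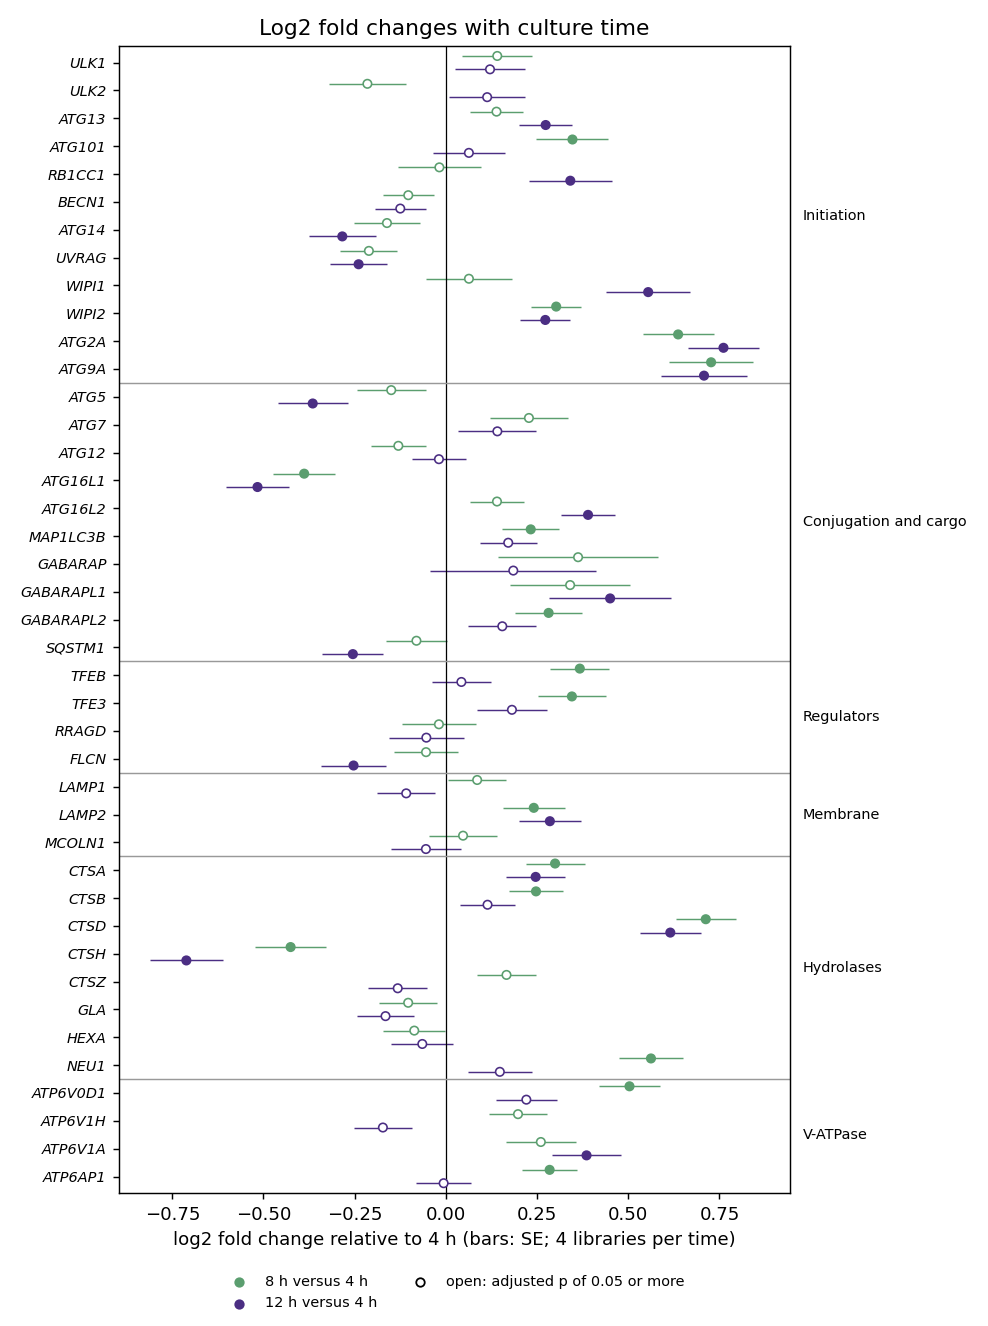
Log2 fold change of 8 h and of 12 h relative to 4 h (horizontal axis) for the 41 tested members, over 4 libraries per time, with bars of 1 SE and filled points where the adjusted p was under 0.05. ATG9A, ATG2A and CTSD lie between 0.62 and 0.76 at both times, NEU1 and ATP6V0D1 have a filled point at 8 h alone, and CTSH is lowest at both.

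Of the 7 members with the CACGTG motif in the sequences shown above, 4 rose from 4 to 8 h (NEU1, CTSD, ATP6V0D1 and CTSA) and none fell, with a median log2 change of 0.30. Of the 26 tested members with a window and no CACGTG, 9 rose and 2 fell, with a median of 0.15. From 4 to 12 h, 2 of the 7 rose and 1 fell, with a median of 0.15. Of the 26, 7 rose and 5 fell, with a median of 0.12. Among all genes 13.1% rose and 13.4% fell from 4 to 8 h, and 18.4% rose and 17.5% fell from 4 to 12 h. The difference between members with and without the motif was not tested. For the combination versus DMSO, 1 of the 7 rose (CTSD), with a median of 0.06, and 5 of the 26, with a median of 0.15, where 4.16% of all genes were higher. LAMP1, with the most copies, did not pass in any of these comparisons.

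A wider list of 135 other genes of autophagy, lysosome and nutrient sensing, of which 125 were tested, was read in the same fits. In the combination versus DMSO 10 were higher and 1 lower, which is 8.80% of 125 and near the 9.57% of all genes. Of all genes, 4.16% were higher and 5.41% lower. The median was 0.08 over the wider list and 0.02 over all genes. Genes of vesicle fusion made up 4 of the 10, out of 13 tested, and hydrolases 3, out of 33. Conjugation and cargo genes made up 2, out of 11, and V-ATPase genes 1, out of 16. None of the 11 initiation, 20 lysosome membrane and 21 nutrient sensing genes tested passed. The 3 higher genes with the smallest p were TECPR1, a tether between autophagosome and lysosome, at 0.77 ± 0.11, SMPD1, the acid sphingomyelinase, at 0.72 ± 0.13, and ARSA, the arylsulfatase A, at 0.74 ± 0.16, with edgeR adjusted p of 9.1e-04, 0.00329 and 0.0104. At 4, 8 and 12 h TECPR1 read 9.83, 15.4 and 13.4 CPM with DMSO and 16.6, 22.9 and 26.7 with the combination. ARSA read 2.67, 4.08 and 4.68 with DMSO and 6.18, 6.16 and 6.60 with the combination, with no overlap between these groups. The 1 lower gene was CTSC, the protease that activates granule serine proteases, at -0.29 ± 0.08 (edgeR adjusted p = 0.0382), with 415, 303 and 249 CPM with DMSO and 318, 256 and 210 with the combination. In the combination versus ibrutinib 5 of the wider list were higher and 1 lower (4.80%), against 2.1% and 3.39% of all genes (5.49%). Versus SPX5551, 9 were higher and none lower (7.20%), against 3.27% and 3.97% of all genes (7.24%). With ibrutinib alone and with SPX5551 alone none passed. From 4 to 8 h 17 were higher and 13 lower (24% of 125, against 26.6% of all genes), and from 4 to 12 h 21 were higher and 25 lower (36.8%, against 35.9%). These shares of the wider list, taken over both directions, are near those of all genes. For the combination, most calls in the wider list were higher, while more of all genes were lower than higher. That difference in direction was not tested.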

How the data were processed

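Poly(A) RNA of REC1 cells was sequenced in 12 libraries, per the labels' protocols, although the labels' molecule field names genomic DNA. BWA and hg38 are named in the submitters' processing notes, while no counting tool, annotation release or strand setting is given in the sources used here. The authors deposited whole-number counts per Ensembl gene for 60483 genes, and log2 CPM for 14767 of them. No column of these tables belonged to no sample.

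Columns were assigned by header, the ibrutinib columns also for their time. Symbols were found for 93.8% of the identifiers, and positions came from GENCODE release 29. Genes were filtered with filterByExpr and scaled by TMM in edgeR 4.0.16 (R 4.3.3), which left 14412 genes, 99.9% of the counts in each library. Printed CPM are the deposited counts scaled by TMM, so folds match the tests. Treatments were compared with edgeR's quasi-likelihood F-test in an additive model of treatment and time over all 12 libraries, exposures in a model of time and both exposures, and all p-values were adjusted by Benjamini-Hochberg over all genes tested. SE was taken as the size of the log2 fold change over the square root of the F statistic. The common biological coefficient of variation was 0.101. The edgeR fit of the combination versus DMSO was run on simulated counts with no effect of time and no trend with transcript length. That run cannot show how the fits handle either.

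Alternatives were library size alone, DESeq2 1.42.0, limma 3.58.1 on the deposited log2 CPM, no filter on low counts, removal of the trend in transcript length and base composition, no time term, only the libraries of the treatments compared, the column pairing of the descriptions, leaving out each library or each time, and leaving out the 8 h ibrutinib and 12 h SPX5551 libraries together. The members and lists were chosen with earlier results of these data known. Named members are those with an adjusted p under 0.05, at most 8 in each direction, plus 10 set for their roles: ULK1, BECN1, MAP1LC3B, GABARAPL1, SQSTM1, TFEB, MITF, LAMP1, CTSD and ATP6V1H. Of the wider list, up to 3 in each direction are named. Others are named as examples. No molecular identifiers marked PCR copies, so counts carry more than counting error.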

Additional observations from a re-analysis of the deposited data

How the results depend on the processing

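In the combination versus DMSO, ULK1 passed with the same direction in 24 of 25 settings, all but the pairing by descriptions. Members called in that comparison were 7, then 11 with library size alone, 11 with the length and base composition trend removed, 1 with no time term (no replicate block), 4 by the descriptions, and 3 to 7 when a library or a time was left out. Of all genes, 9.57% were called in the main fit, 11.3% with library size alone and 15.9% with the trend removed. The combination versus ibrutinib called 5, then 0 with no time term, 0 by the descriptions, 3 with the 6 libraries alone, and 0 to 6 on leaving out. The combination versus SPX5551 called 4, then 0 with no time term, 2 by the descriptions and 2 to 5 on leaving out. Ibrutinib exposure called 6, then 1 with no time term, 2 by the descriptions, 2 without 2 libraries (ibrutinib at 8 h, SPX5551 at 12 h), and 0 to 8 on leaving out. SPX5551 exposure called 5, then 0 with no time term, 0 by the descriptions, 3 without those 2 libraries, and 0 to 6 on leaving out. The time counts went from 12 to 20 (12 h) and from 10 to 18 (8 h) on leaving out. With no time term, the share of all genes called was 0.187% for the combination versus DMSO, 0% versus ibrutinib and 0.0347% versus SPX5551. It was 0.201% for ibrutinib exposure and 0% for SPX5551 exposure. The cause of the drop with no time term was not tested. No paired analysis by replicate number was possible because the labels number no replicates; time took the place of the block.

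By the descriptions, ibrutinib versus DMSO called 7 members, SPX5551 versus DMSO 5 and the interaction 5, where the headers gave 0 in each. By the descriptions, the log2 fold changes of the combination versus DMSO were -0.79 for ULK1, -0.33 for WIPI1, -0.78 for ATG2A, -0.44 for ATG16L2, -0.33 for CTSD, -0.32 for LAMP2, -0.094 for GABARAPL2, -0.41 for GABARAPL1, -0.070 for MAP1LC3B, -0.059 for SQSTM1, -0.16 for LAMP1, -0.0060 for BECN1 and -0.015 for TFEB. The combination versus SPX5551 became -0.16 for ULK1 and -0.41 for ATG2A. Ibrutinib exposure became -0.58 for ULK1, -0.53 for ATG2A, -0.29 for RB1CC1, -0.28 for ATG16L2, -0.27 for LAMP2 and 0.26 for ATG101, and SPX5551 exposure -0.23 for ULK1, -0.092 for WIPI1, -0.17 for ATG16L2, -0.12 for CTSD and -0.074 for GABARAPL2. These follow from the other assignment of the same columns.

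With the headers, signs turned only for values near 0 in the combination versus DMSO, and the cause was not tested. TFEB was -0.0062 with DESeq2, -0.0060 with limma, -0.0027 with the trend removed, -0.0042 without both libraries, and -0.068 to 0.074 on leaving out. On leaving out, LAMP1 ran from -0.087 to 0.12, BECN1 from -0.0031 to 0.043 and ATP6V1H from -0.015 to 0.14. The fit of time by ibrutinib exposure with limma was not run. Precision is limited most for GABARAP, at 33 counts in its lowest library, and by 1 library per treatment and time.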
